A study of Homo sapiens with 12 samples.

Results

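The 10 genes described here encode the enzymes that build long-chain fatty acids and the transcription factor that drives them. They are FASN, ACACA, ACACB, ACLY, SCD, FADS1, FADS2, ELOVL5, ELOVL6 and SREBF1. They were taken by symbol, with no filter on their values but with earlier results of these data known. All 10 were among the 17640 genes listed for HepG2 and the 18434 listed for Huh7, 20293 in either line. HepG2 and Huh7 are human liver cancer lines, which the study calls hepatocellular carcinoma lines and the labels describe as WT. Each was transfected with a non-target Ctrl-siRNA or with UBL5 siRNA, which targets ubiquitin-like protein 5 (UBL5), and RNA was taken at 52 h by the labels. The study's text gives a shorter time, and which holds cannot be told from the files. Each line gave 3 libraries per siRNA, so there were 4 groups and 12 libraries, and all of them had passed through transfection. The sources used here do not say whether the 3 libraries came from separate transfections, so each p-value reflects variation among these libraries only, which may be technical.

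Fatty acid synthesis starts from citrate, which ATP citrate lyase (ACLY) splits to cytosolic acetyl-CoA. Acetyl-CoA carboxylase turns acetyl-CoA into malonyl-CoA, and fatty acid synthase (FASN) joins malonyl units into palmitate. ELOVL6 lengthens palmitate, and SCD sets the first double bond to give monounsaturated fatty acids. FADS2, FADS1 and ELOVL5 act on dietary polyunsaturated fatty acids. In liver, SREBP-1, the product of SREBF1, is the best known activator of this set, while SREBP-2 acts mostly on cholesterol synthesis.

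The knockdown was checked before any other gene. In HepG2, UBL5 stood at 60.4, 55.5 and 58.7 CPM in the Ctrl-siRNA libraries and at 6.88, 4.31 and 2.80 CPM after UBL5 siRNA, where CPM is the count per 1000000 counts after TMM scaling of the library. In Huh7, the values were 68.1, 70.8 and 67.1 CPM against 6.45, 6.67 and 5.80 CPM. The targeted transcript was thus low in all 6 libraries labelled UBL5 siRNA, with a log2 fold change of -3.63 ± 0.26 (SE) in HepG2 and -3.44 ± 0.07 in Huh7.

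Total counts per library ran from 19983681 to 29744471 in HepG2 and from 19469574 to 27158770 in Huh7. In HepG2, the column names of replicate 3 of both siRNAs lack a suffix that all other columns carry, and the reason is not given. Among the HepG2 libraries, 1773 listed genes were at 0 in Ctrl-siRNA replicate 3, against 159 to 233 in the others. No fatty acid synthesis gene was at 0 in any library, and without that replicate each of the 10 genes kept its call in HepG2. The share of counts on mitochondrial genes was 1.91 to 2.35% with Ctrl-siRNA and 2.75 to 3.61% with UBL5 siRNA in HepG2, and 2.46 to 3.30% against 2.66 to 3.72% in Huh7. Its part in the results was not tested. All 18 hepatocyte markers were listed in both lines, and their summed level overlapped between the siRNAs in HepG2 (63806 to 68252 CPM against 60937 to 69389 CPM of raw totals) and in Huh7 (35526 to 37158 CPM against 35710 to 36493 CPM). Of the 6 endothelial markers, VWF, KDR, TEK and ERG were not listed in either line, and the sum of the others was 3.75 to 6.51 CPM against 2.87 to 6.15 CPM in HepG2 and 0.0514 to 0.684 CPM against 0.0479 to 0.633 CPM in Huh7. Of the 6 leukocyte markers, PTPRC, CD68, CD3E and ITGAM were not listed in either line. Those that were listed, LYZ among them in both lines, summed to 1686 to 2217 CPM with Ctrl-siRNA and 968 to 1212 CPM with UBL5 siRNA in HepG2, and to 576 to 591 CPM against 324 to 341 CPM in Huh7. The 6 fibroblast and stellate cell markers summed to 8.05 to 14.1 CPM against 9.96 to 26.0 CPM in HepG2 and 32.4 to 36.6 CPM against 17.5 to 30.1 CPM in Huh7. The cholangiocyte markers, 5 of 6 listed in each line, summed to 1102 to 1148 CPM against 1284 to 1346 CPM in HepG2 and 369 to 413 CPM against 322 to 359 CPM in Huh7. The part of these sums in the results was not tested.

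With UBL5 siRNA, ACACA, FASN, ELOVL6 and SCD, on the route from acetyl-CoA to monounsaturated fatty acids, were higher in both lines, while ACACB and the polyunsaturated desaturase FADS1 were lower. In HepG2, 5 of 10 genes were called higher (FASN, ACACA, SCD, ELOVL6 and SREBF1), 2 were called lower (ACACB and FADS1), and 3 did not pass the threshold of an adjusted p under 0.05 (ACLY, FADS2 and ELOVL5). Over all 15755 genes tested in HepG2, 36.7% were called, 16.5% higher and 20.1% lower. Among protein-coding genes with a mean of at least 10 CPM, 49.9% were called in HepG2. In Huh7, 7 genes were called higher, the same 5 with ACLY and ELOVL5, and the same 2 were lower, so that FADS2 alone of the 10 was not called. Over all 16965 genes tested in Huh7, 71.3% were called, 34.9% higher and 36.4% lower, and 79.3% of protein-coding genes with a mean of at least 10 CPM were called. The 7 of 10 genes called in HepG2 and 9 of 10 in Huh7 thus stand beside a large background. The median log2 fold change of the 10 genes was 0.28 in HepG2 and 0.48 in Huh7, against 0.01 and -0.01 over all genes tested. Of 14518 genes tested in both lines, 14.5% were called higher in both and 16.4% lower in both. These are levels in bulk RNA, in which fewer cells of a kind and less RNA per cell cannot be told apart.

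**Figure D1:**
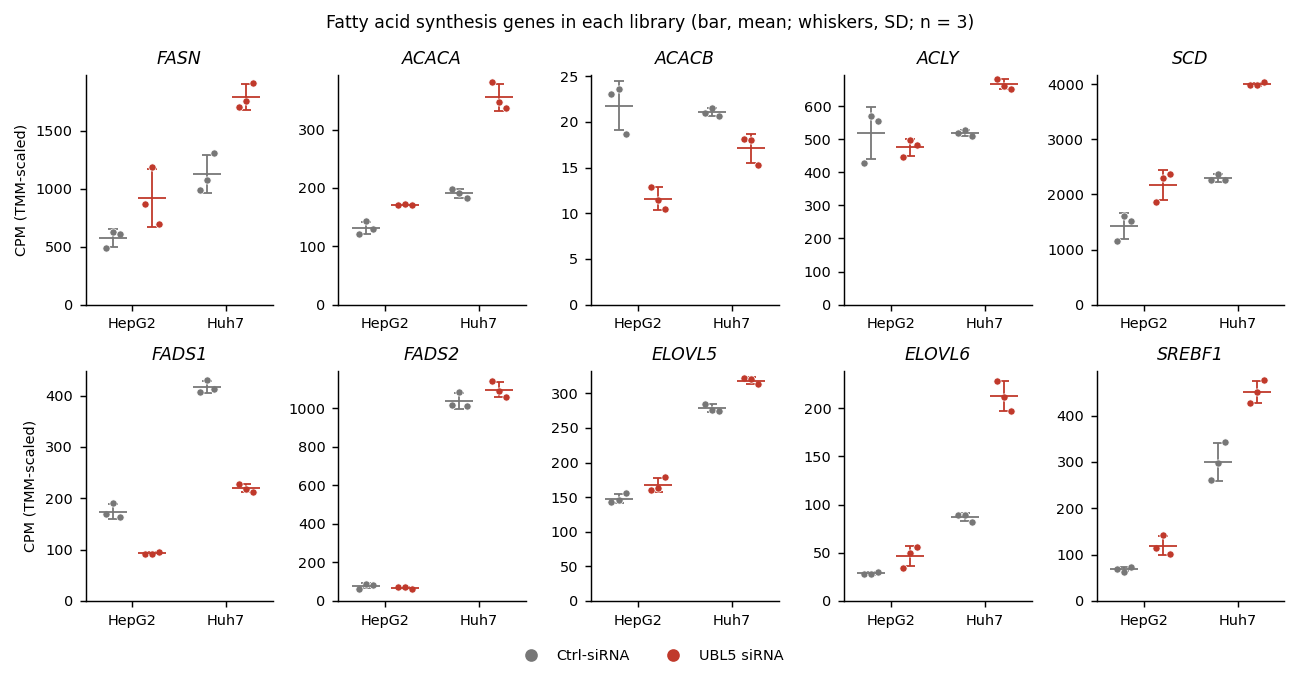
Level of each fatty acid synthesis gene in each of the 12 libraries, in CPM after TMM scaling within a line (vertical axis, from 0), with Ctrl-siRNA in grey and UBL5 siRNA in red. Points are libraries, bars are means and whiskers are SD (n = 3). FADS1 fell by about the same factor in both lines, from 174 to 92.8 CPM in HepG2 and from 417 to 220 CPM in Huh7.

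SREBF1, on chr17:17810399-17837002 (minus strand, GRCh38), encodes SREBP-1. Its level in HepG2 was 69.8, 63.3 and 72.7 CPM with Ctrl-siRNA and 115, 142 and 102 CPM with UBL5 siRNA. All 3 libraries with UBL5 siRNA were above all 3 with Ctrl-siRNA, and the log2 fold change was 0.80 ± 0.13 (SE; adjusted p = 0.00169, edgeR). The Huh7 values were 260, 297 and 342 CPM against 428, 451 and 476 CPM, again without overlap, with a log2 fold change of 0.59 ± 0.08 (adjusted p = 5.53e-05). The gene model shares 6.75% of its exon bases with RAI1 on the other strand.

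ACLY, on chr17:41866917-41930542 (minus strand), makes the acetyl-CoA that the pathway consumes. In HepG2, the values were 429, 571 and 556 CPM with Ctrl-siRNA and 447, 498 and 483 CPM with UBL5 siRNA. The groups overlapped, and the 95% interval of the log2 fold change ran from -0.38 to 0.13. In Huh7, the values were 518, 528 and 510 CPM against 684, 662 and 654 CPM. There the groups were apart, with a log2 fold change of 0.36 ± 0.04 (adjusted p = 1.15e-05).

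Acetyl-CoA carboxylase has 2 genes, ACACA for the cytosolic enzyme that feeds fatty acid synthesis and ACACB for the enzyme at the mitochondrial surface, whose malonyl-CoA restrains the import of fatty acids for oxidation. They moved in opposite directions in both lines. ACACA, on chr17:37084992-37406836 (minus strand), was at 121, 143 and 130 CPM with Ctrl-siRNA and at 171, 172 and 171 CPM with UBL5 siRNA in HepG2, a log2 fold change of 0.38 ± 0.09 (adjusted p = 0.00842). In Huh7, the values were 198, 192 and 183 CPM against 382, 348 and 337 CPM, a log2 fold change of 0.90 ± 0.06 (adjusted p = 5.99e-08). ACACA thus rose by a factor of 1.3 in HepG2 and 1.86 in Huh7.

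ACACB, on chr12:109116587-109268226 (plus strand), was the least abundant of the 10 genes. In HepG2, it was at 23.1, 23.6 and 18.7 CPM with Ctrl-siRNA and at 12.9, 11.5 and 10.4 CPM with UBL5 siRNA, which is 562 to 602 reads against 201 to 293 reads. The log2 fold change was -0.91 ± 0.15 (adjusted p = 0.00192). Huh7 libraries gave 20.9, 21.5 and 20.7 CPM against 18.1, 17.97 and 15.3 CPM, with a log2 fold change of -0.30 ± 0.08 (adjusted p = 0.00701). In both lines the groups did not overlap. The ratio of ACACA to ACACB reads, which does not depend on how a library is scaled, was 6.10 ± 0.86 (SD, n = 3) with Ctrl-siRNA against 14.9 ± 1.58 with UBL5 siRNA in HepG2. In Huh7, this ratio was 9.07 ± 0.34 against 20.8 ± 1.38.

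FASN, on chr17:82078338-82098294 (minus strand), has 43 exons in its GENCODE canonical transcript within a gene of 19957 bases. In HepG2, FASN was at 485, 626 and 605 CPM with Ctrl-siRNA and at 864, 1187 and 698 CPM with UBL5 siRNA. The lowest library with UBL5 siRNA was above the highest with Ctrl-siRNA, but the coefficient of variation of the UBL5 siRNA group, 27.2%, was the widest of any of the 10 genes in any group. The log2 fold change was 0.68 ± 0.18 (adjusted p = 0.0184). It was 0.57 without Ctrl-siRNA replicate 1, where the adjusted p was 0.0590 and the call was lost. In Huh7, FASN was at 991, 1070 and 1308 CPM against 1703, 1754 and 1912 CPM. The log2 fold change there was 0.67 ± 0.09 (adjusted p = 3.04e-05), a factor of 1.59 beside 1.60 in HepG2. Read against ACLY in the same library, FASN gave 1.11 ± 0.02 reads (SD, n = 3) per ACLY read with Ctrl-siRNA against 1.92 ± 0.47 with UBL5 siRNA in HepG2, and 2.17 ± 0.35 against 2.69 ± 0.22 in Huh7, where the individual values overlapped (1.91 to 2.56 against 2.49 to 2.92).

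ELOVL6, on chr4:110045846-110199199 (minus strand), lengthens palmitate to stearate. In HepG2, it was at 27.5, 27.7 and 30.5 CPM with Ctrl-siRNA and at 34.6, 49.7 and 55.5 CPM with UBL5 siRNA, a log2 fold change of 0.70 ± 0.17 (adjusted p = 0.0113). Huh7 libraries gave 89.5, 88.7 and 81.8 CPM against 228, 212 and 197 CPM. Its log2 fold change of 1.29 ± 0.06 (adjusted p = 9.23e-09), a factor of 2.45, was the highest of the 10 genes in Huh7.

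SCD, on chr10:100347233-100364826 (plus strand), encodes stearoyl-CoA desaturase, which places the double bond of oleate. It was the most abundant of the 10 genes, ranked 39 of 12009 protein-coding genes tested in HepG2 and 17 of 12941 in Huh7 by CPM with Ctrl-siRNA. In HepG2, it was at 1157, 1606 and 1517 CPM with Ctrl-siRNA and at 1855, 2292 and 2371 CPM with UBL5 siRNA, a log2 fold change of 0.61 ± 0.14 (adjusted p = 0.00823). The Huh7 values were 2256, 2376 and 2261 CPM against 3989, 3985 and 4035 CPM, a log2 fold change of 0.80 ± 0.04 (adjusted p = 2.73e-08). Summed over the 10 genes, the level was 2689 to 3486 CPM with Ctrl-siRNA and 3821 to 4681 CPM with UBL5 siRNA in HepG2. In Huh7, the sum was 6041 to 6403 CPM against 9061 to 9210 CPM. Much of the sum is SCD and FASN, whose means went from 1427 to 2173 CPM and from 572 to 916 CPM in HepG2. In Huh7, these means went from 2298 to 4003 CPM and from 1123 to 1790 CPM. The sum does not describe each gene, since ACACB and FADS1 fell in both lines.

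FADS1 and FADS2 are neighbours on chr11 that are read from opposite strands, at 61799627-61829318 (minus) and 61792980-61867354 (plus), and encode the delta-5 and delta-6 desaturases. FADS1 fell while the desaturase SCD rose. In HepG2, FADS1 was at 169, 191 and 163 CPM with Ctrl-siRNA and at 91.9, 91.4 and 95.1 CPM with UBL5 siRNA, a log2 fold change of -0.91 ± 0.09 (adjusted p = 0.000207). In Huh7, FADS1 was at 408, 431 and 412 CPM against 228, 219 and 213 CPM, a log2 fold change of -0.92 ± 0.05 (adjusted p = 1.32e-08). Its level with UBL5 siRNA was 0.53 times that with Ctrl-siRNA in either line.

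FADS2 passed the threshold in neither line. In HepG2, it was at 64.6, 89.1 and 84.2 CPM with Ctrl-siRNA and at 70.3, 74.6 and 64.0 CPM with UBL5 siRNA, and the 95% interval of its log2 fold change ran from -0.49 to 0.11. In Huh7, FADS2 was at 1015, 1085 and 1010 CPM against 1140, 1091 and 1059 CPM, with an interval from -0.02 to 0.19. The ratio of FADS2 to FADS1 reads was 0.456 ± 0.068 (SD, n = 3) with Ctrl-siRNA against 0.751 ± 0.073 with UBL5 siRNA in HepG2. In Huh7, the ratio was 2.48 ± 0.03 against 4.99 ± 0.005. FADS1 shares 5.57% of its exon bases with FADS2 on the other strand and with MIR1908. FADS2 shares 5.11% of its exon bases with FADS1 on the other strand and with FEN1 on the same strand. How reads in the bases shared with FEN1 were counted cannot be told. The libraries were stranded, but the strand setting of the counting is not given in the sources used here. How reads in the bases shared by FADS1 and FADS2 were counted thus cannot be told either.

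ELOVL5, on chr6:53267398-53349179 (minus strand), lengthens the products of the polyunsaturated desaturases. In HepG2, it was at 143, 146 and 156 CPM with Ctrl-siRNA and at 160, 163 and 179 CPM with UBL5 siRNA. The groups did not overlap, but the log2 fold change of 0.17 ± 0.08 did not pass (adjusted p = 0.135). In Huh7, it was at 285, 276 and 274 CPM against 322, 321 and 313 CPM, a log2 fold change of 0.19 ± 0.04 (adjusted p = 0.00128). In all, 8 of the 10 genes in HepG2 and 9 of 10 in Huh7 had no overlap between the siRNAs, beside 53.0% and 73.9% of all genes tested in those lines.

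**Figure D2:**
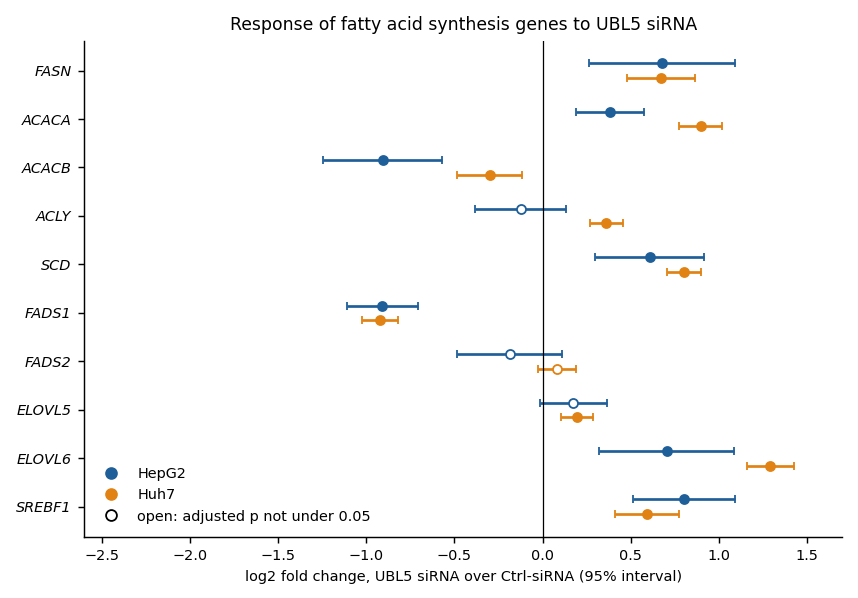
Log2 fold change of each gene with UBL5 siRNA over Ctrl-siRNA (horizontal axis) in HepG2 (blue) and Huh7 (orange), with the 95% interval as bars and open points where the adjusted p was not under 0.05. ACACB and FADS1 lie below 0 in both lines, and FASN has nearly the same value in both, 0.68 and 0.67.

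The response differed between the lines for 4 of the 10 genes by the interaction test over all 12 libraries, beside 21.5% of the 15668 genes tested. The difference, taken as the log2 fold change in Huh7 minus that in HepG2, was 0.49 ± 0.10 (SE) for ACACA (adjusted p = 0.00419), with the larger rise in Huh7. It was 0.58 ± 0.17 for ACACB (adjusted p = 0.0251), with the larger fall in HepG2, and 0.46 ± 0.13 for ACLY (adjusted p = 0.0222). For ELOVL6 it was 0.56 ± 0.19 (adjusted p = 0.0492). ACACA alone of these passed on leaving out any 1 of the 12 libraries, with an adjusted p of 0.0152 or less. Leaving out 1 library ended the call for ACACB in 7 of 12 cases, for ACLY in 4 and for ELOVL6 in 10. The call of ELOVL6 was also lost with the size factors of DESeq2 (adjusted p = 0.0578). The number of genes called was then 1 to 4. It was 1 without HepG2 Ctrl-siRNA replicate 2, Huh7 Ctrl-siRNA replicate 3, or Huh7 UBL5 siRNA replicate 1 or 2, and 2 without HepG2 UBL5 siRNA replicate 2 or Huh7 Ctrl-siRNA replicate 1.

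For the other 6 genes, no difference between the lines was called. The 95% interval of the difference in log2 fold change was narrow for FADS1 (-0.24 to 0.16) and ELOVL5 (-0.21 to 0.19) and wider for SCD (-0.18 to 0.51), FADS2 (-0.06 to 0.55), SREBF1 (-0.58 to 0.11) and FASN (-0.51 to 0.45). For FADS2 the difference was 0.37 and passed (adjusted p = 0.0155) without HepG2 Ctrl-siRNA replicate 1.

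The levels with Ctrl-siRNA differed between the lines as well. With Ctrl-siRNA, 8 of the 10 genes were higher in Huh7 than in HepG2, beside 63.7% of the 15668 genes called different and 32.0% called higher in Huh7. On a scale common to the 12 libraries, FADS2 was at 82.8 ± 13.9 CPM (SD, n = 3) in HepG2 and 1014 ± 45.4 CPM in Huh7, a factor of 12.2 (log2 difference 3.61 ± 0.11, adjusted p = 5.30e-12). SREBF1 was at 71.6 ± 5.43 CPM against 293 ± 38.01 CPM, a factor of 4.09 (adjusted p = 3.02e-09). ELOVL6 was 2.84 times higher in Huh7, FADS1 2.25 times, FASN 1.84 times, ELOVL5 1.76 times, SCD 1.51 times and ACACA 1.36 times. ACACB and ACLY were not called different, with 95% intervals of the log2 difference from -0.39 to 0.11 and from -0.29 to 0.10. The line and any batch of its libraries cannot be told apart. Without HepG2 Ctrl-siRNA replicate 1, ACLY was called lower in Huh7, with a log2 difference of -0.23 (adjusted p = 0.00652).

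Set against each other per length (CPM per kb of the canonical transcript), the order of levels with Ctrl-siRNA in HepG2 was SCD at 272 ± 45.4 (SD, n = 3), ACLY at 121 ± 18.1, FASN at 67.6 ± 9.004, ELOVL5 at 53.5 ± 2.52, FADS1 at 39.9 ± 3.33, FADS2 at 25.7 ± 4.18, SREBF1 at 14.0 ± 0.99, ACACA at 13.1 ± 1.09, ELOVL6 at 4.35 ± 0.25 and ACACB at 2.33 ± 0.29. The libraries of neighbouring genes in this order overlapped only between SREBF1 and ACACA. In Huh7, SCD led at 438 ± 13.0, followed by FADS2 at 335 ± 13.6 and FASN at 133 ± 19.5, and FASN and ACLY (121 ± 2.13) overlapped. ACACB was last in Huh7 as well, at 2.25 ± 0.05. The place of FADS2 depends on the length used. Over the union of its exons, 10553 bases in place of the 3091 bases of the canonical transcript, FADS2 ranked 8 in HepG2 in place of 6 and 4 in Huh7 in place of 2.

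**Figure D3:**
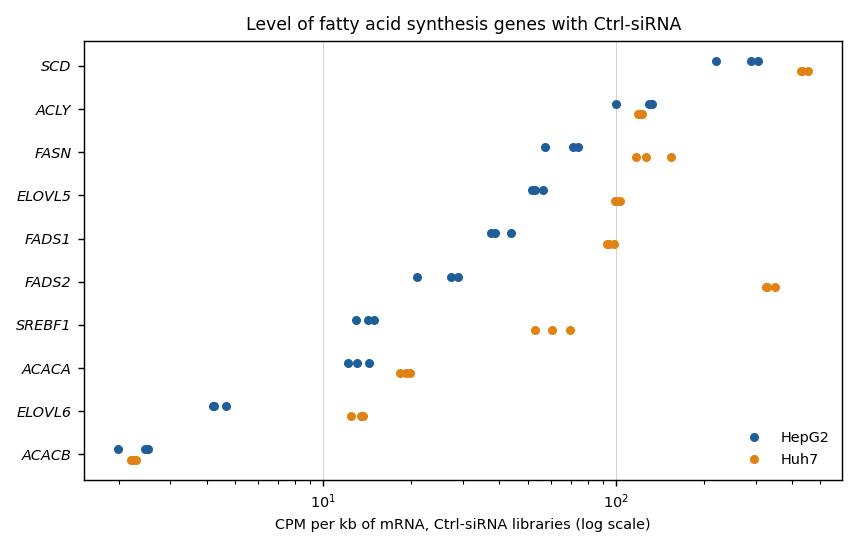
Level of each gene with Ctrl-siRNA in CPM per kb of the canonical transcript (horizontal axis, log scale), 3 libraries per line, with HepG2 in blue and Huh7 in orange and genes in the order of HepG2. CPM was scaled within each line, so the lines are not on a common scale. FADS2 shows the widest gap between the lines, 25.7 against 335 CPM per kb. Its factor on the scale common to the 12 libraries was 12.2. The points of ACLY and ACACB lie at nearly the same level in both lines.

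The number of exons in the canonical transcript varied on both sides. Of the genes called the same way in both lines, ACACA (56), FASN (43), SREBF1 (19), SCD (6) and ELOVL6 (4) rose, and ACACB (53) and FADS1 (12) fell. Of the others, ACLY had 29 exons and ELOVL5 8, both called only in Huh7, and FADS2, called in neither line, had 12. The counts are per gene and do not separate spliced from unspliced reads.

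RefSeq promoter windows (GRCh38.p14) were matched for 9 of the 10 genes, all but FASN, with 14 windows in all, since ACACA, ACACB, ACLY and FADS2 have more than 1 start. Of the genes called in both lines, 3 with a single start are shown as examples: SCD as the most abundant of the 10, ELOVL6 for its rise in Huh7, and FADS1, which fell. Each stretch below is the longest part of the 250 bases before the RefSeq start that lies in no GENCODE exon, read 5′ to 3′ on the gene's strand. The RefSeq starts of ELOVL6 and FADS1 lie downstream of the outermost GENCODE start, so their stretches fall inside the gene spans given above. Capitals mark the CCAAT box (bound by NF-Y) and the GC box GGGCGG (bound by SP1), on either strand. The SCD stretch is chr10:100346983-100347232 on the plus strand, the ELOVL6 stretch chr4:110198654-110198841 on the minus strand, and the FADS1 stretch chr11:61817198-61817253 on the minus strand.
SCD: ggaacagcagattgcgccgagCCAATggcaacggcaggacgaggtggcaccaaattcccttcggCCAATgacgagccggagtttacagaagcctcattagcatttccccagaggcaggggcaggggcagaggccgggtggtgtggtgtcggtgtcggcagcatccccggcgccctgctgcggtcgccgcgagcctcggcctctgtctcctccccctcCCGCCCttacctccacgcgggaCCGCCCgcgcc
ELOVL6: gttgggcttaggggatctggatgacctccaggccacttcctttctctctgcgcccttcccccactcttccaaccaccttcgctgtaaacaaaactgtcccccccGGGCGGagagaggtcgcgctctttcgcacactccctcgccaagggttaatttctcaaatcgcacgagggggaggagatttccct
FADS1: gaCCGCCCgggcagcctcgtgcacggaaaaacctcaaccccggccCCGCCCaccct

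The SCD stretch holds 2 CCAAT and 2 GGGCGG matches, the ELOVL6 stretch 1 GGGCGG match, and the FADS1 stretch 2 GGGCGG matches. Over the 250 bases before the start, GGGCGG or its reverse complement was in 10 of the 14 windows, beside 42.6% of all 35116 promoter windows of that length. These windows belong to ACACA, ACACB, ACLY, SCD, FADS1, FADS2, ELOVL6 and SREBF1, and ACACA, ACACB and FADS2 each have another window without a match. CCAAT or its reverse complement was in 7 of the 14 (of ACACA, ACACB, ACLY, SCD and ELOVL5), beside 32.0% of all windows. Windows of the same gene can overlap and are not independent. The E-box CACGTG was in the ELOVL5 window, in 6.34% of all windows. The sterol element letters TCACNCCAC were in 0.883% of all windows and in none of the 14. The motifs did not overlap each other's letters in the stretches shown. A match is a description of the letters and was not tested as a binding site.

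Upstream of the enzymes, SREBP is held in the endoplasmic reticulum, carried to the Golgi by SCAP and cut by the site-1 and site-2 proteases. Of 17 genes tested on the list of SREBP processing and transcriptional control in HepG2, 7 were called higher and 2 lower, and of 18 in Huh7, 11 were higher and 3 lower. The shares called, 52.9% and 77.8%, lie near the 49.9% and 79.3% of protein-coding genes with a mean of at least 10 CPM. The counts on each list below stand beside these same background shares, or 36.7% and 71.3% over all genes tested. MBTPS1, the site-1 protease, rose from 102 to 197 CPM in HepG2 (log2 fold change 0.95 ± 0.08 SE, adjusted p = 0.000117) and from 138 to 205 CPM in Huh7 (0.57 ± 0.04, adjusted p = 3.26e-07). NFYA, a subunit of the CCAAT-binding factor, rose from 56.7 to 97.0 CPM and from 51.3 to 124 CPM. RXRA, the partner of the liver X receptor, rose in Huh7 from 119 to 300.0 CPM, with 83.8 against 107 CPM in HepG2 (adjusted p = 0.0514). MLXIPL, the carbohydrate-responsive activator of lipogenic genes, fell in HepG2 from 129 to 46.3 CPM, and was at 19.6 CPM with either siRNA in Huh7, a difference between the lines of 1.45 on the log2 scale (adjusted p = 6.17e-05).

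Genes for the supply of acetyl-CoA and NADPH went both ways. Of 11 genes tested in HepG2, 1 was higher and 4 lower, and of 12 in Huh7, 4 were higher and 4 lower. ACSS1, the mitochondrial acetyl-CoA synthetase, fell in both lines, by 1.28 in HepG2 and by 1.08 in Huh7 on the log2 scale. MDH1, the cytosolic malate dehydrogenase, fell by 0.65 in HepG2 and by 0.63 in Huh7. CS, citrate synthase, rose by 0.47 in HepG2 and 0.90 in Huh7 on that scale. ACSS2, which makes cytosolic acetyl-CoA from acetate, rose from 39.8 to 79.9 CPM in Huh7 and was at 66.7 against 69.0 CPM in HepG2.

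Acetyl-CoA carboxylase is switched off by the AMP-activated kinase, whose subunits and upstream kinases are on the list of its regulators. In HepG2, 1 of 12 genes tested was higher and 4 were lower, and in Huh7, 4 were higher and 6 lower. PRKAG1, a regulatory subunit of that kinase, fell by 1.09 in HepG2 and by 1.12 in Huh7 on the log2 scale. CAMKK2, an upstream kinase, fell from 75.0 to 40.8 CPM in HepG2, and was at 48.3 against 44.1 CPM in Huh7 (adjusted p = 0.0796). BRCA1, whose product binds phosphorylated acetyl-CoA carboxylase, fell by 1.93 in HepG2 and by 0.98 in Huh7. TRIB3, a pseudokinase tied to the turnover of the carboxylase, rose by 0.80 in Huh7 and was at 208 against 207 CPM in HepG2.

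Among the other elongases and enzymes of the elongation cycle, 4 of 9 genes tested were higher and 2 lower in HepG2, and 5 of 10 were higher and 2 lower in Huh7. ELOVL2, which lengthens polyunsaturated fatty acids of longer chains, fell from 244 to 117 CPM in HepG2 and from 97.6 to 82.2 CPM in Huh7. HACD3, a dehydratase of the cycle, rose from 264 to 334 CPM in HepG2 and from 285 to 580 CPM in Huh7. Among the other desaturases and the cytochrome b5 proteins that pass electrons to them, 3 of 7 genes tested were higher and 1 lower in HepG2, and 4 of 9 were higher and 2 lower in Huh7. CYB5R4 rose from 12.5 to 25.0 CPM and from 20.6 to 33.5 CPM, while CYB5R1 fell from 22.1 to 12.4 CPM and from 55.3 to 32.99 CPM, in HepG2 and Huh7, respectively.

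Acyl-CoA synthetases, which activate fatty acids for use, split as well, with 4 of 13 higher and 2 lower in HepG2 and 5 of 13 higher and 4 lower in Huh7. ACSL3, found on the endoplasmic reticulum and lipid droplets, rose from 536 to 829 CPM in HepG2 and from 366 to 660 CPM in Huh7. ACSL4, which prefers polyunsaturated chains, rose from 693 to 1138 CPM in HepG2 and was at 870 against 830 CPM in Huh7, a difference between the lines of -0.81 (adjusted p = 0.000613). In the separate mitochondrial pathway of fatty acid synthesis, 1 of 9 genes was higher and 3 were lower in HepG2, and 2 of 9 were higher and 4 lower in Huh7. The ketoreductase pair CBR4 and HSD17B8 fell in both lines. CBR4 fell from 26.8 to 13.7 CPM and from 41.6 to 16.01 CPM, and HSD17B8 from 9.60 to 2.17 CPM and from 7.67 to 0.783 CPM, while NDUFAB1, the acyl carrier protein, rose by 0.41 in HepG2 and 0.72 in Huh7 on the log2 scale.

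Cholesterol synthesis, the neighbouring SREBP pathway, had the highest median of the 8 lists in both lines. In HepG2, 12 of 22 genes were higher and 1 lower, with a median log2 fold change of 0.36, and in Huh7, 17 were higher and 3 lower, with a median of 0.64. HMGCS1 rose from 205 to 493 CPM and from 1826 to 4514 CPM, and the sterol methyl oxidase MSMO1 from 160 to 273 CPM and from 211 to 424 CPM. LSS, lanosterol synthase, fell by 1.14 in HepG2 and by 0.73 in Huh7, against the direction of its neighbours. Over all 8 lists together, 52 of 100 genes tested were called in HepG2 (33 higher and 19 lower) and 80 of 105 in Huh7 (52 higher and 28 lower), with medians of 0.17 and 0.15. These shares, 52.0% and 76.2%, lie near those of protein-coding genes with a mean of at least 10 CPM.

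**Figure D4:**
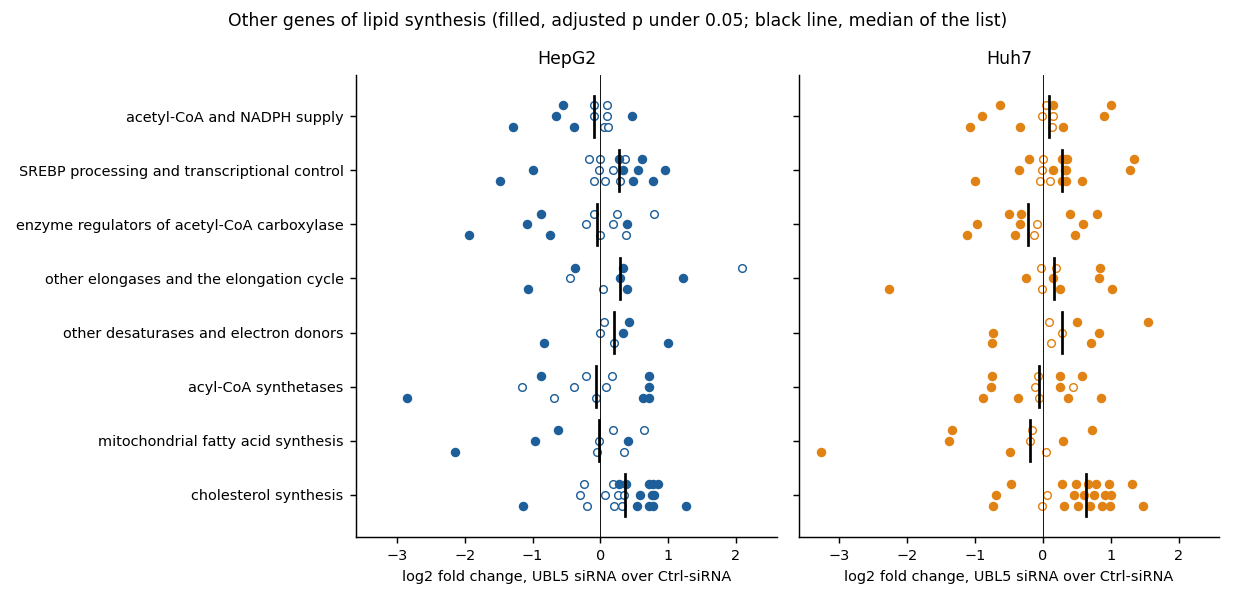
Log2 fold change with UBL5 siRNA over Ctrl-siRNA (horizontal axis) of the other lipid synthesis genes by list, in HepG2 (blue, left) and Huh7 (orange, right). Points are genes, filled where the adjusted p was under 0.05, and the black line is the median of the list, which is highest for cholesterol synthesis, at 0.36 and 0.64.

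By the Pearson correlation of log2 CPM over the 12 libraries, each line centred on its own mean, the protein-coding genes most like FASN among 9188 were MTSS2 (r = 0.97), the histone demethylase KDM6B (0.97), the transcriptional coactivator ZMIZ1 (0.97), the cytochrome b5 reductase CYB5R3 (0.96) and CYP51A1 of cholesterol synthesis (0.96). Their log2 fold changes ran from 0.34 to 0.79 in HepG2 and from 0.32 to 0.97 in Huh7. SREBF1 ranked 24 (r = 0.94), SCD 428 (0.85) and ACACA 1106 (0.79), while FADS1 had an r of -0.86 and ACACB of -0.76. These correlations share the same libraries and the same siRNA contrast and are given as a description.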

How the data were processed

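RNA was sequenced by the authors as stranded, poly-A-selected, single-end libraries. Per the labels and the study's methods, reads were demultiplexed with bcl2fastq, checked with FastQC 0.11.9, aligned to GRCh38 with STAR 2.7.6a and summed per gene with featureCounts. The annotation and strand setting are not given in the sources used here. The deposited tables hold raw counts per gene and library, which were used. Beside them the authors deposited a normalized mean signal, a log2 fold change with its error, a test score and a p-value with its adjusted p-value from DESeq2 1.30.0, which were not used.

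All 12 count columns were matched by name. Counts were filtered with filterByExpr (minimum count 10, minimum total 15), scaled by TMM and put through edgeR 4.0.16 (glmQLFTest, R 4.3.3, with limma 3.58.1), with Benjamini-Hochberg adjustment over all genes tested, within each line (3 against 3 libraries) and over the 12 libraries for differences between lines. The threshold was an adjusted p under 0.05. Alternatives were DESeq2 1.42.0, other scalings, no filter, a replicate block, limma voom with group weights for the comparisons between lines, and leaving out each library. Tables and figures were made with Python 3.11.15, pandas 2.3.3 and matplotlib 3.10.9. Gene models are from GENCODE 44. Steps were tested on simulated data in which few genes changed, so a response as broad as the one here was not simulated. The members and lists were chosen with earlier results of these data known. Named are the 10 members, UBL5, genes among the 3 smallest adjusted p of each of the 8 lists per line, and the 5 genes most like FASN with a mean of at least 10 CPM. Some genes on these lists are not reported here by name.

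Depth was 19469574 to 29744471 counts per library. The parts of counting and of the spread between libraries in the precision of each member were not separated. The biological coefficient of variation, a common value over all genes tested, was 0.189 in HepG2 and 0.0663 in Huh7. No library duplicated another, since any pair within a line differed in at least 96.8% of genes. Residuals of same-numbered libraries of the siRNAs correlated at 0.408, 0.319 and 0.336 in HepG2 and at 0.437, 0.0625 and 0.567 in Huh7 over genes with a mean of at least 10 CPM. Over all genes tested, these correlations were 0.124, 0.110 and 0.0729 in HepG2 and 0.161, 0.0155 and 0.212 in Huh7. Among genes with at least 10 CPM, which include all members, libraries of unlike number were also compared. They correlated at -0.342 to -0.0459 in HepG2 and -0.506 to 0.127 in Huh7. Residuals were centred on the mean of each group of 3 libraries. Positive values for like numbers thus by themselves push those for unlike numbers below 0 on average. The labels give no pairing, and whether the libraries were paired cannot be told. Fold changes, errors and calls are from fits without the replicate block unless the block is named. With the block, the SE was 0.055 in place of 0.136 for SCD in HepG2 and 0.044 in place of 0.088 for FASN in Huh7. It was 0.128 in both fits for SREBF1 in HepG2.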

Additional observations from a re-analysis of the deposited data

Results flagged for a closer look

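The response to UBL5 siRNA differed between the lines by the interaction test for 4 genes. The log2 fold change in Huh7 minus that in HepG2 was 0.49 for ACACA, 0.58 for ACACB, 0.46 for ACLY and 0.56 for ELOVL6. The test used a scale common to the 12 libraries, while the means below were scaled within each line. These means thus do not give the differences exactly. With Ctrl-siRNA and UBL5 siRNA, ACACA was at 131 and 171 CPM in HepG2 against 191 and 355 CPM in Huh7. In the same order, ACACB was at 21.8 and 11.6 CPM against 21.0 and 17.1 CPM. ACLY was at 519 and 476 CPM against 519 and 667 CPM, and ELOVL6 at 28.6 and 46.6 CPM against 86.7 and 212 CPM. On the common scale, ACLY with Ctrl-siRNA was at 542 CPM in HepG2 and 508 CPM in Huh7. Of these 4, ACLY is the gene whose log2 fold change had opposite signs in the lines, -0.12 in HepG2, where it did not pass, and 0.36 in Huh7.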

How the results depend on the processing

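In HepG2, each of the 10 genes kept its call in 10 of 11 alternatives, the exception being FASN without Ctrl-siRNA replicate 1, and the number called was 6 to 7 on leaving out a library. In Huh7, each kept its call in all 11. With the replicate block, which is a paired fit, 7 genes were called in HepG2, 9 in Huh7, 4 for the difference in response and 8 for the level with Ctrl-siRNA, and no member's call changed. The other lipid synthesis genes called were then 61 in HepG2 and 83 in Huh7, and 41 to 56 and 75 to 79 on leaving out a library.

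For the difference in response, 1 to 4 genes were called on leaving out a library. The call of ELOVL6 was also lost with DESeq2 size factors (adjusted p = 0.0578), without a filter (0.0519) and with limma voom (0.0623). FASN and ELOVL5 were called in none of these fits. On leaving out a library, their difference ran from -0.19 to 0.19 and from -0.055 to 0.049. FASN was above 0 (0.08, 0.19, 0.08 and 0.004) without HepG2 Ctrl-siRNA replicate 1, HepG2 UBL5 siRNA replicate 2, Huh7 Ctrl-siRNA replicate 3 or Huh7 UBL5 siRNA replicate 1. For the level with Ctrl-siRNA, 8 to 9 genes were called. Scaling by library totals alone moved the median difference of all genes between the lines from 0.02 to 0.14 and gave ACLY 0.029 on the log2 scale in place of -0.09, not called either way. The cause of these changes was not tested. ACACB had the fewest reads of the members, 201 to 602 a library. How far depth limits its precision was not tested.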

Other observations

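INSIG1, INSIG2 and ME1 were chosen here after their values were seen. INSIG1, which retains SCAP and SREBP in the endoplasmic reticulum, had 3, 5 and 3 reads with Ctrl-siRNA and 8, 14 and 2 reads with UBL5 siRNA in HepG2, too few to be tested there. In Huh7 it had 8177, 6388 and 5825 reads against 5633, 5618 and 6521 reads, and did not pass (log2 fold change -0.01). The level of its partner gene INSIG2 was 131 CPM with either siRNA in HepG2. Also, ME1, the cytosolic malic enzyme that yields NADPH for FASN, was not listed in HepG2 and fell from 158 to 126 CPM in Huh7.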
